A study of Mus musculus with 18 samples.

Results

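A set of 5 transcription factor genes that mark the trophoblast lineage (*Cdx2*, *Elf5*, *Elf3*, *Gata2* and *Gata3*) and 4 simple keratin genes (*Krt7*, *Krt8*, *Krt18* and *Krt19*) were followed by RNA-seq through 6 kinds of mouse pluripotent stem cell. These 9 genes were taken by name out of 35773 genes counted. A minimum of 10 counts in 3 or more samples was asked of a gene before testing, and 8 of the 9 met it, among 16901 genes in all. *Elf5* did not reach that count and is described by its counts alone.

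The trophoblast is the outer lineage of the blastocyst, from which the placenta is built. CDX2, a caudal homeobox factor, acts against OCT4 in its founding layer, the trophectoderm, GATA3 works there alongside it, and ELF5 maintains trophoblast stem cells, while CDX2 is used again later in the posterior embryo. Keratins are intermediate filament proteins that form obligate pairs of a type II with a type I chain, and KRT8 with KRT18 is the pair of simple epithelia, trophectoderm included, so that the keratin genes mark epithelial cells in general and not the trophoblast alone.

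The study asked how pluripotent stem cells held in different media compare, and whether culture with WNT and BMP4 signals gives a distinct state. There were 18 samples, 3 in each of 6 groups, and all carried the strain 129S2/SvPasCrl and a wild type genotype in their labels, although the study's methods describe derivation from crosses to reporter males of mixed background. ESCs were naive embryonic stem cells in 2i/LIF, which blocks MEK and GSK3 and adds leukemia inhibitory factor. AFSCs came from blastocysts in a defined N2B27 medium to which activin A and bFGF were added. ASCs were derived from AFSCs in ABCL medium, which is N2B27 with activin A, BMP4, the WNT agonist CHIR99021 and LIF, by picking colonies positive for a GFP reporter of *Oct4*. ESC-ASCs were ESCs converted in ABCL medium. EpiLCs (epiblast-like cells) and EpiSCs (epiblast stem cells) were the further primed cell types. Whether the ESC-ASC samples descend from the same ESC line as the ESC samples is not given in the sources used here.

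Total counts per sample lay between 4961934 and 9906473 in 5 groups and between 17813619 and 18071600 in ESC-ASCs, at least 1.8 times any other sample, so that depth or any batch that goes with it cannot be told apart from the cell type there. All 6 groups expressed *Pou5f1* (mean normalized counts per kb of 4853 to 8089), and the summed level of 5 naive markers was 2689 to 4610 in ESCs, ASCs and ESC-ASCs against 7.74 to 119 in the primed groups. Levels here are counts divided by a size factor and by exonic length in kb, which allows genes to be compared. Fold changes and adjusted p-values come from edgeR's quasi-likelihood test, with an adjusted p below 0.05 taken as a call. In RNA from bulk cultures, fewer cells that express a gene and less RNA in each cell cannot be told apart.

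Among the factors, *Cdx2* was high in ESCs and ASCs, nearly silent in ESC-ASCs and low in the primed cells. *Cdx2* (chr5:147300805-147307270 on GRCm38, minus strand) stood at 71.4, 112 and 102 normalized counts per kb in the ESC samples and at 41.0, 55.1 and 57.2 in the ASC samples. In ESC-ASCs it was 0, 0.216 and 0.889, from 5 counts in all 3 samples together. No ESC-ASC sample came near the lowest ASC sample, although both cell types grew in ABCL. The ratio of pooled levels was 268 for ESCs over ESC-ASCs, with a 95% counting interval of 114 to 830, and 139 for ASCs over ESC-ASCs, with an interval of 59.0 to 431. The primed groups read 1.53, 0.783 and 2.84 in EpiLCs, 1.79, 2.05 and 2.75 in AFSCs, and 2.32, 3.12 and 5.49 in EpiSCs. In the order ESC, ASC, EpiSC, AFSC, EpiLC and ESC-ASC, the neighbors EpiSC and AFSC (adjusted p = 0.326) and AFSC and EpiLC (adjusted p = 0.633) did not differ beyond their spread, whereas the step from EpiLC down to ESC-ASC did (adjusted p = 0.023).

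*Gata2*, a zinc finger factor of trophoblast and blood progenitors, ran the other way in the converted cells. Its levels were 87.3, 72.9 and 89.8 in ESC-ASCs, 33.0, 31.7 and 34.1 in ASCs and 7.66, 13.2 and 14.3 in ESCs (chr6:88193891-88207032, plus strand). These 3 groups, the ones with naive markers, did not overlap, and both steps between them were called, with adjusted p = 3.57e-05 between ESC-ASC and ASC and 6.22e-05 between ASC and ESC. All primed samples lay below them: EpiLCs at 1.07, 0.656 and 2.18, AFSCs at 0.499, 0.214 and 0.768, and EpiSCs at 0.243, 0.163 and 0. EpiSCs held 2 counts in total, so the ASC level was 262 times theirs with a counting interval of 72.1 to 2170.

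The sequences before the annotated starts of *Cdx2* and *Gata2* are shown because these factors moved in opposite directions between ASCs and ESC-ASCs. They are from RefSeq on GRCm38.p6, 5′ to 3′ on the strand of the gene, with capitals for matches to any of 4 motifs. Both strands were searched for the TATA box with its letters TATAAA, for the GC box with its letters GGGCGG, for the CCAAT box under that spelling and for the motif of GATA factors with its letters AGATAA. No window shown holds more than 1 match. In the *Cdx2* window (chr5:147307271-147307499) the capitals mark a CCAAT box read on the other strand, and in the *Gata2* window (chr6:88193641-88193890) a GC box. RefSeq gave 2 windows for *Gata2*, and the one with the lower coordinate is shown. The *Cdx2* stretch holds 229 bases, fewer than the 250 over which shares are given below.
Cdx2: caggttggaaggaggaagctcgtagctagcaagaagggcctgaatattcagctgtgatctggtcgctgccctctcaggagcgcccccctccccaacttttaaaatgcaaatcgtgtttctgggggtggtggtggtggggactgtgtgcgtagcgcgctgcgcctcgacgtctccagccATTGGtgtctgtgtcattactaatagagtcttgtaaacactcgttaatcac
Gata2: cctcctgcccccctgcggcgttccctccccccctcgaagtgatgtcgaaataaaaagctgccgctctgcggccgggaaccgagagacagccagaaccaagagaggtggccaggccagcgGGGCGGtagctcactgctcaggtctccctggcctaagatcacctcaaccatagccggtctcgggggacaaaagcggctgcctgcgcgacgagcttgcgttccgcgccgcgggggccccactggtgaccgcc
Over the 250 bases before the start, a CCAAT box was found in 33.8% of 32851 RefSeq windows and a GC box in 32.7%, so these matches are common and describe the sequence, not a bound site.

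*Gata3* was closer to *Cdx2* than to *Gata2* in its pattern, with a mean absolute difference of centered log2 levels over the 18 samples of 1.74 against 2.58. Levels were 11.1, 15.9 and 13.8 in ASCs, 5.94, 4.39 and 4.77 in ESCs and 2.71, 0.873 and 2.34 in AFSCs (chr2:9857078-9890034, minus strand). ASCs were above every other sample, and the drop to ESC-ASCs, at 0.127, 0 and 0.379, was 81.6-fold with a counting interval of 31.2 to 303. EpiLCs (0, 0.445 and 0) and EpiSCs (0, 0.222 and 0) held 2 counts and 1 count in total. ESC-ASC, EpiLC and EpiSC did not differ from each other in that order (adjusted p = 0.978 and 0.67). The step from ESC to AFSC was called (log2 fold change −1.32 ± 0.47 SE, adjusted p = 0.0207) but rested on AFSC replicate 2, without which it was −0.967 (adjusted p = 0.0942). *Gm13256* and *9230102O04Rik* share 155 and 77 exonic bases with *Gata3* and had at most 7 and 3 counts in any sample. Fragments in shared bases were counted for each gene, so that low *Gata3* counts, as in AFSCs, are uncertain.

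*Elf3*, which encodes an epithelial ETS factor, had the highest level of the 5 factors in every group. It gave 80% ± 2.75 (SD, n = 3) of the summed level of the 5 factors in ASCs, 88.8% ± 2.06 in ESCs and 69.0% ± 8.86 in EpiSCs. Its level was 884.6, 908 and 866.5 in ESCs, 746.5, 655 and 732 in ESC-ASCs and 289, 492 and 424 in ASCs (chr1:135253575-135258568, minus strand). The primed cells read 36.0, 47.5 and 37.6 in EpiLCs, 31.0, 28.2 and 26.2 in AFSCs and 7.70, 11.1 and 8.18 in EpiSCs, and 4 of the 5 steps of the order were called, the exception being that from ESC to ESC-ASC (log2 fold change −0.33 ± 0.15 SE, adjusted p = 0.07). That step passed the threshold when the fit held the samples compared alone (adjusted p = 0.0123) or ESC-ASC libraries were thinned to the depth of the others (adjusted p = 0.0488). *Gm26642* on the opposite strand shares 162 exonic bases with *Elf3*, and its counts exceeded those of *Elf3* in all 3 primed groups. *Gm26642* had 158 to 218 counts in EpiSCs against 13 to 28 of *Elf3*, 148 to 179 against 51 to 56 in AFSCs and 135 to 153 against 69 to 119 in EpiLCs. The low *Elf3* values in these groups, and the fold changes that rest on them, are therefore uncertain under counting without strand.

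*Elf5*, the trophoblast stem cell factor, had 9 counts in the 18 samples together and no more than 2 in any sample (chr2:103411688-103450989, plus strand). ESC-ASCs held 0 counts, which allows a mean level of up to 0.0849, and the highest group mean was 0.203 in EpiSCs. *Elf5* was thus not detectable above a few counts at this depth in any of the 6 cell types.

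**Figure D1:**
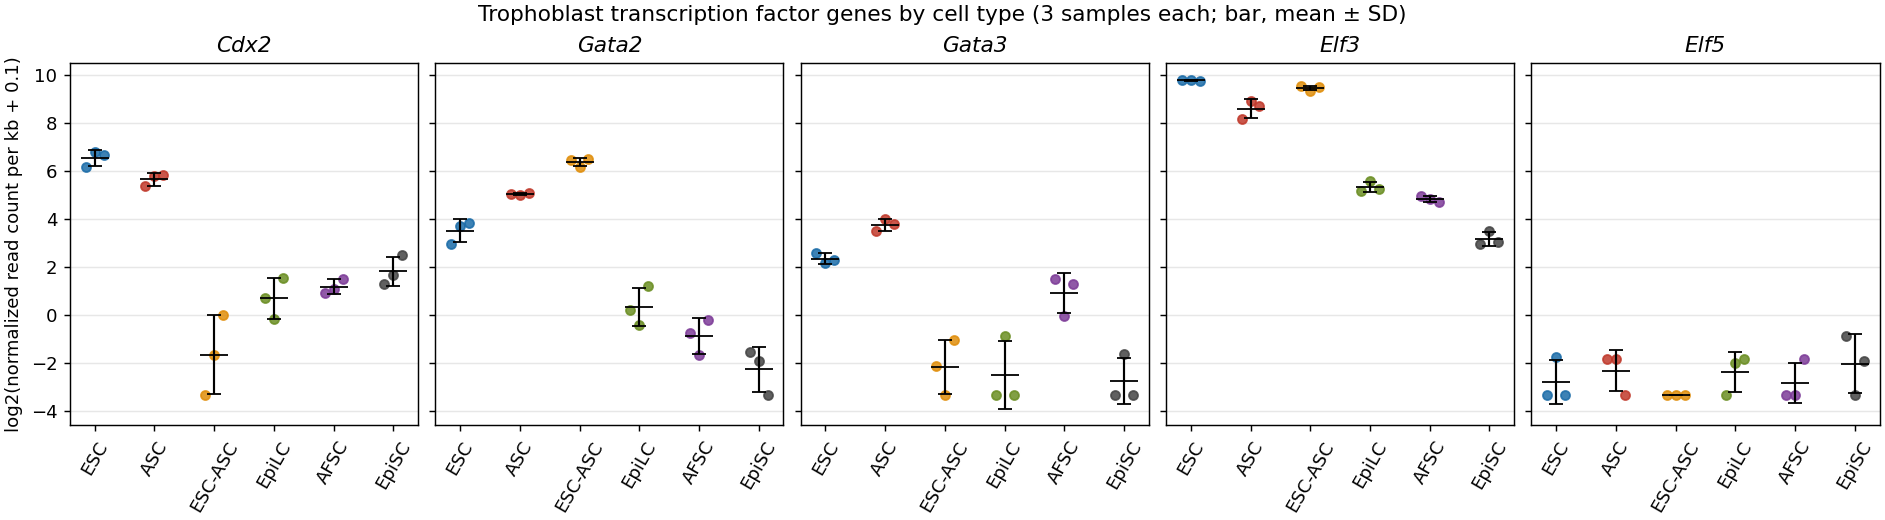
Levels of the 5 trophoblast factor genes in each sample (points), as log2(normalized read count per kb + 0.1), for 6 cell types with 3 samples each, with the mean ± SD of the log2 values as bars. A sample with 0 counts sits at the floor of the axis: *Cdx2* and *Gata3* drop in ESC-ASCs (means of 0.369 and 0.169), where *Gata2* reaches its highest mean (83.3), and *Elf5* stays at the floor or near it throughout.

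The keratins gave other orders, led by AFSCs for *Krt8*, *Krt18* and *Krt19* and by EpiSCs for *Krt7*. *Krt8*, the type II partner, read 1426, 1279 and 1169 in AFSCs (chr15:101996711-102004342, minus strand). ASC samples followed at 292, 304 and 318, and ESC samples were lowest at 37.1, 28.4 and 22.9. Between these lay EpiSCs (198, 182 and 204), EpiLCs (111, 99.98 and 93.7) and ESC-ASCs (65.3, 87.2 and 83.8). All 5 steps of the order AFSC, ASC, EpiSC, EpiLC, ESC-ASC and ESC were called, the closest being EpiLC and ESC-ASC with adjusted p = 0.0259.

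*Krt18*, the type I partner, was 1119, 924 and 763 in AFSCs and 15.5, 12.5 and 13.6 in ESCs (chr15:102028216-102032026, plus strand). The EpiLC values were 257, 268 and 277, the ASC values 215, 265.5 and 295, the EpiSC values 195, 166 and 219 and the ESC-ASC values 100.4, 125 and 129.6. EpiLCs and ASCs overlapped and did not differ (log2 fold change of ASC against EpiLC −0.08 ± 0.16 SE, adjusted p = 0.689). ASC and EpiSC samples also overlapped, and their call (0.41 ± 0.16 SE, adjusted p = 0.0284) was lost without ASC replicate 2 (0.0629) or 3 (0.136) and without EpiSC replicate 1 (0.0634) or 2 (0.125). The ESC samples lay 68.3-fold under the AFSC samples, with no overlap.

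*Krt8* and *Krt18* are neighbors on chromosome 15 that point away from each other, with starts 23874 bp apart, and were the closest pair among the 8 genes in their pattern. The mean absolute difference of their centered log2 levels over 18 samples was 0.65, against 1.13 for the next pair, *Elf3* and *Gata2*, and 4.09 for the farthest, *Gata2* and *Krt18*. The 250 bases before each start are therefore shown, again from RefSeq on GRCm38.p6 in the direction of the gene, at chr15:102004343-102004592 (minus strand) and chr15:102027966-102028215 (plus strand).
Krt8: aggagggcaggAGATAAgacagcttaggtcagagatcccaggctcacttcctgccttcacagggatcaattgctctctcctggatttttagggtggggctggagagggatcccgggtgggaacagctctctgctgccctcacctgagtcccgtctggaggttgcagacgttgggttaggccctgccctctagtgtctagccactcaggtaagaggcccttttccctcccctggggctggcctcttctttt
Krt18: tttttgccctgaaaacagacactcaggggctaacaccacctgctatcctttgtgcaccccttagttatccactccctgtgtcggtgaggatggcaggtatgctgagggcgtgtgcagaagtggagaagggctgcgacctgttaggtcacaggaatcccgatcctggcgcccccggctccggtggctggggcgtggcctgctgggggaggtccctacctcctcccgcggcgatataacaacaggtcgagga
The capitals mark the GATA motif in *Krt8*, which 9.99% of the windows hold, and none of the 4 motifs is in the *Krt18* window. The letters TATAAA began 1 base before the annotated *Krt8* start, and a match on the other strand began 3 bases before it. Both ran past the start, outside the stretch shown. The share of windows with TATAAA, 12.4%, is for the 250 bases before the start and does not cover such matches. Of the 9 genes 8 matched the RefSeq table, and *Krt19* did not.

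*Krt19*, the smallest type I keratin, was high in AFSCs, ESC-ASCs and ASCs and low in the other cell types. Levels were 410, 360.1 and 256 in AFSCs, 146, 228 and 177.5 in ESC-ASCs and 133, 171 and 150 in ASCs (chr11:100140810-100148665, minus strand). The other groups were far below, with 13.7, 9.54 and 8.08 in EpiLCs, 12.7, 7.53 and 6.01 in ESCs and 2.12, 0.95 and 3.09 in EpiSCs. ESC-ASCs and ASCs overlapped (log2 fold change 0.29 ± 0.21 SE, adjusted p = 0.244), as did EpiLCs and ESCs (0.33 ± 0.37 SE, adjusted p = 0.471). AFSCs and EpiSCs differed most: *Krt19* was 166-fold higher in AFSCs than in EpiSCs (log2 fold change 7.37 ± 0.34 SE, adjusted p = 7.34e-12).

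*Krt7*, a type II keratin of trophoblast and glandular epithelia, stayed low everywhere. Samples ranged from 0.474 in an ESC sample to 15.7 in an ESC-ASC and an EpiSC sample (chr15:101411043-101430313, plus strand), over an exonic length of 7055 bp, the longest of the 9, which lowers its level per kb. EpiSCs (13.2, 12.9 and 15.7) and ESC-ASCs (14.0, 11.8 and 15.7) shared the top (adjusted p = 0.953). AFSCs (5.34, 7.06 and 5.58) and EpiLCs (4.26, 3.51 and 4.85) formed a middle pair (adjusted p = 0.114), and ASCs (2.60, 1.62 and 1.40) and ESCs (1.40, 1.65 and 0.474) the lowest (adjusted p = 0.154). *Krt7* thus did not follow *Krt8*, although both are type II chains.

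**Figure D2:**
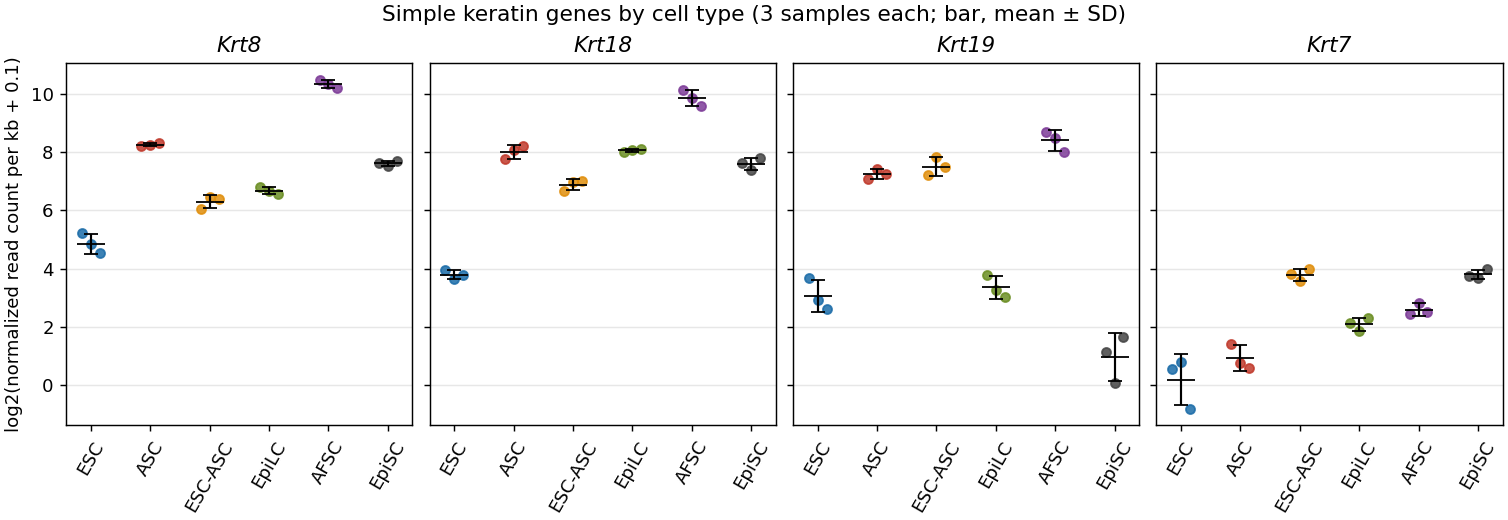
Levels of the 4 simple keratin genes in each sample (points), as log2(normalized read count per kb + 0.1), for 6 cell types with 3 samples each, with the mean ± SD of the log2 values as bars. *Krt8* and *Krt18* peak in AFSCs (means of 1291 and 935) and are lowest in ESCs (29.4 and 13.8), whereas *Krt19* falls to 2.05 in EpiSCs and *Krt7* is highest there (13.9).

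Summed over the 4 simple keratins, the level was 2570 ± 384 (SD, n = 3) in AFSCs, 716 ± 64.4 in ASCs, 404 ± 40.0 in EpiSCs, 395 ± 64.0 in ESC-ASCs, 383 ± 2.25 in EpiLCs and 53.2 ± 12.2 in ESCs. The make-up varied also between groups of like sum. *Krt19* held 46.4% ± 3.63 of the sum in ESC-ASCs, 2.72% ± 0.75 in EpiLCs and 0.494% ± 0.22 in EpiSCs, and *Krt18* held 69.7% ± 2.85 in EpiLCs. The ratio of *Krt8* to *Krt18* was 0.339 to 0.431 in EpiLCs, 0.647 to 0.698 in ESC-ASCs, 0.933 to 1.10 in EpiSCs, 1.08 to 1.36 in ASCs, 1.28 to 1.53 in AFSCs and 1.69 to 2.40 in ESCs. Type II over type I chains came to 0.308 ± 0.0246 in ESC-ASCs and 1.35 ± 0.155 in ESCs, and these groups did not overlap. With 3 samples a group an exact permutation test of such a ratio cannot go below p = 0.1 (two-sided), so the ratios are given as a description. A processed pseudogene of *Krt8*, *Krt8-ps*, is 98.6% identical over 941 bases, and 1 of *Krt18*, *Gm5200*, is 90.5% identical over 1267 bases. Neither was analysed here, and fragments that map to several places were counted at each.

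**Figure D3:**
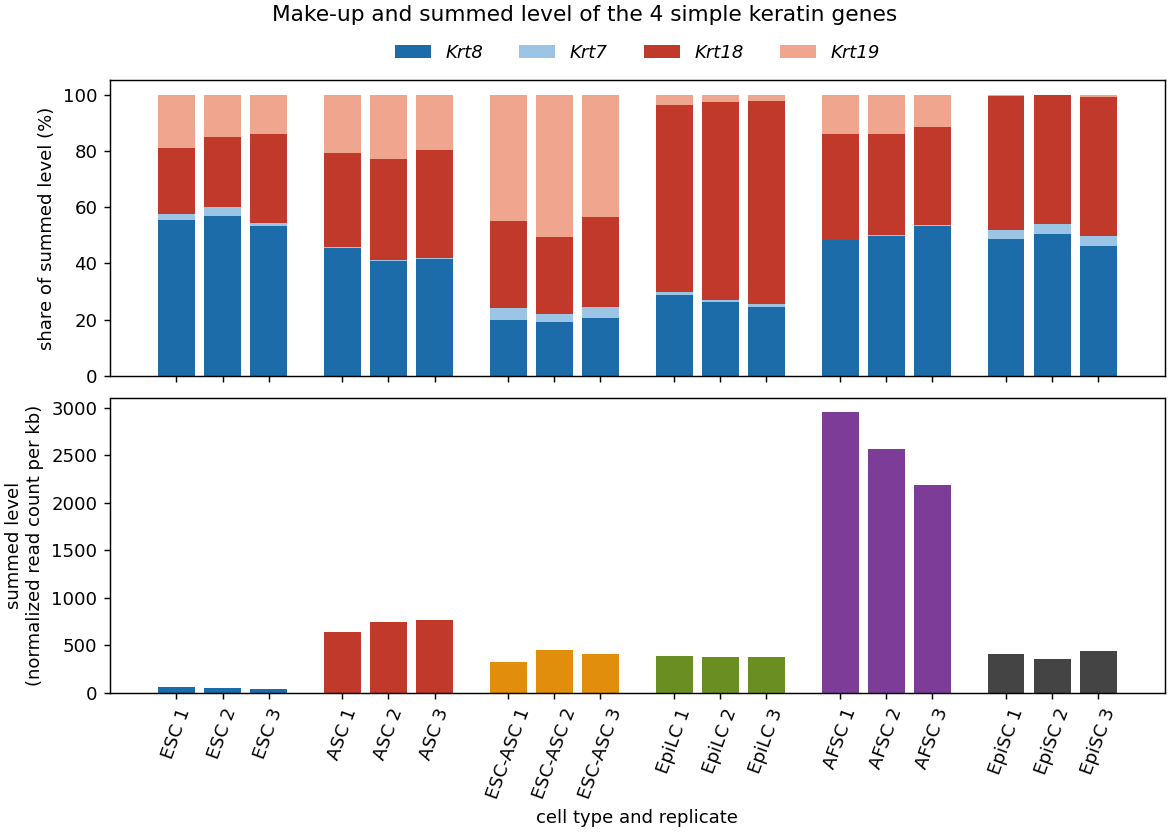
Make-up of the simple keratin RNA by sample: the upper bars give the share of each of the 4 genes in their summed level (%), and the lower bars give that sum in normalized read counts per kb, for 6 cell types with 3 replicates each. AFSC samples sum to 2193 to 2961 and all ESC samples to 66.7 or less, while the *Krt19* share is largest in ESC-ASCs (43.7 to 50.5%).

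ASCs against ESCs asks what sets 2 of the cultures with naive markers apart. Of the 8 tested genes 7 were called, 5 higher and 2 lower in ASCs, where 50.3% of all genes tested were called (26.4% higher and 23.9% lower). *Krt18* was 18.5-fold higher (log2 fold change 4.21 ± 0.22 SE, adjusted p = 3.69e-11), *Krt19* 18-fold higher and *Krt8* 10.4-fold higher. These 3 keratins also passed the study's thresholds (besides the adjusted p, a log2 fold change over 2 in size and over 3 for the average log2 level in either group), as did 6.51% of genes. The factors moved by less, with *Gata2* and *Gata3* each 2.70-fold higher, and *Cdx2* 1.90-fold and *Elf3* 2.24-fold lower. The median log2 fold change over the 8 genes was 1.43, against 0.02 over all genes tested.

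Markers of other cell types also moved in this comparison, where 26.4% of all genes tested were higher and 23.9% lower in ASCs. Primitive endoderm, another epithelial lineage of the blastocyst that uses keratins, was followed by 13 markers, of which 9 were tested, 5 higher and 1 lower in ASCs (median log2 fold change 1.99). *Hnf4a*, a nuclear receptor of visceral endoderm, averaged 0.93 in ESCs and 10.2 in ASCs, *Amn*, which encodes amnionless, 0.779 and 22.6, and *Col4a1*, a basement membrane collagen, 7.18 and 48.6. The summed level of the 13 was 140 to 198 in ESCs and 161 to 264 in ASCs, 12 of them having a count in each, and *Ttr* had no counts in ASCs. Of 7 fibroblast markers 5 were tested, 2 higher and 3 lower in ASCs. Their summed level was 41.8 to 101 in ESCs and 75.3 to 117 in ASCs. *Col3a1*, a fibrillar collagen, had 51 to 89 counts per ESC sample and 3 to 7 per ASC sample. The mean of *Col1a1* went the other way, from 22.35 in ESCs to 56.39 in ASCs. The part of either list in the differences was not tested.

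ASCs against AFSCs follows the step by which ASCs were made. All 8 tested genes were called, 4 on each side, where 64% of all genes were (32.8% higher and 31.2% lower), and 5 passed the study's thresholds (14.1% of genes). The split lay between the factors and the keratins of the list: the 4 factors were higher in ASCs and the 4 keratins lower. *Gata2* was higher by 65.3 times (counting interval 31.5 to 163), *Cdx2* by 22.0 (log2 fold change 4.46 ± 0.39 SE, adjusted p = 1.3e-08), *Elf3* by 13.9 and *Gata3* by 6.74. *Krt8* was 4.31-fold, *Krt18* 3.68-fold, *Krt7* 3.24-fold and *Krt19* 2.30-fold lower. No ASC and AFSC samples overlapped for any of the 8, but the share of all genes without overlap was not computed. Of the 9 primitive endoderm markers tested, 5 were higher and 2 lower in ASCs. Their sum over all 13 was 115 to 148 in AFSCs, where 11 had a count. *Lama1*, a laminin gene, averaged 0.776 in AFSCs and 108 in ASCs, *Hnf4a* had no counts in AFSCs and averaged 10.2 in ASCs, and *Foxa2* averaged 90.5 and 0.744. Their part in the keratin levels was not tested.

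ESC-ASCs against ESCs ends in the same ABCL medium but starts from 2i/LIF, where ASCs started from activin A and bFGF and from picked colonies. Of the 8 genes 7 were called, 5 higher and 2 lower in ESC-ASCs (60.1% of all genes called, 30.6% higher and 29.6% lower), and 5 passed the study's thresholds (11.2%). All 4 keratins were higher, *Krt19* by 22.0 times (log2 fold change 4.46 ± 0.29 SE, adjusted p = 3.05e-10), *Krt7* by 11.9, *Krt18* by 8.55 and *Krt8* by 2.72. *Gata2* was 6.85-fold higher, whereas *Cdx2* and *Gata3* nearly disappeared, the latter with ESCs 29.2 times higher (counting interval 10.6 to 112). Thinning ESC-ASC libraries to 7785262 counts left these 7 calls in place. The fibroblast markers summed to 50.8 to 60.7 in ESC-ASCs, where *Col3a1* had 0 counts, and the primitive endoderm markers to 102 to 140, with 3 higher and 2 lower. *Hnf4a* averaged 9.31 in ESC-ASCs, *Amn* 18.4 and *Col4a1* 17.3, all above the ESC means, whereas *Lama1* was lower, at 66.4 against 145. The part of these markers was not tested here either.

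The change into ABCL differed between the 2 origins for all 8 genes, by a test of the difference itself (58.5% of all genes were called in that test, 27.7% with a higher and 30.8% with a lower change from ESCs). For *Krt7*, *Krt8*, *Krt18* and *Krt19* the signs were opposite: log2 fold changes of 3.57, 1.44, 3.10 and 4.46 from ESCs and of −1.70, −2.11, −1.88 and −1.20 from AFSCs. *Cdx2* and *Gata3* were opposite the other way round, and their change from ESCs went from −7.85 to −9.2 and from −4.68 to −5.75 without ESC-ASC replicate 3. *Gata2* rose from both origins, by 2.78 from ESCs and by 5.95 from AFSCs, from starting levels of 11.7 and 0.494. *Elf3* changed by −0.33 (not called) and by 3.80. The 2 changes share no samples. In ESCs, *Krt7*, *Krt8*, *Krt18* and *Krt19* started from means of 1.17, 29.4, 13.8 and 8.76. In AFSCs they started from 5.99, 1291, 935 and 342. *Krt19* ended at 184 in ESC-ASCs and 151 in ASCs, which did not differ (adjusted p = 0.244). The difference between the changes therefore also holds the difference between the starting cultures.

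**Figure D4:**
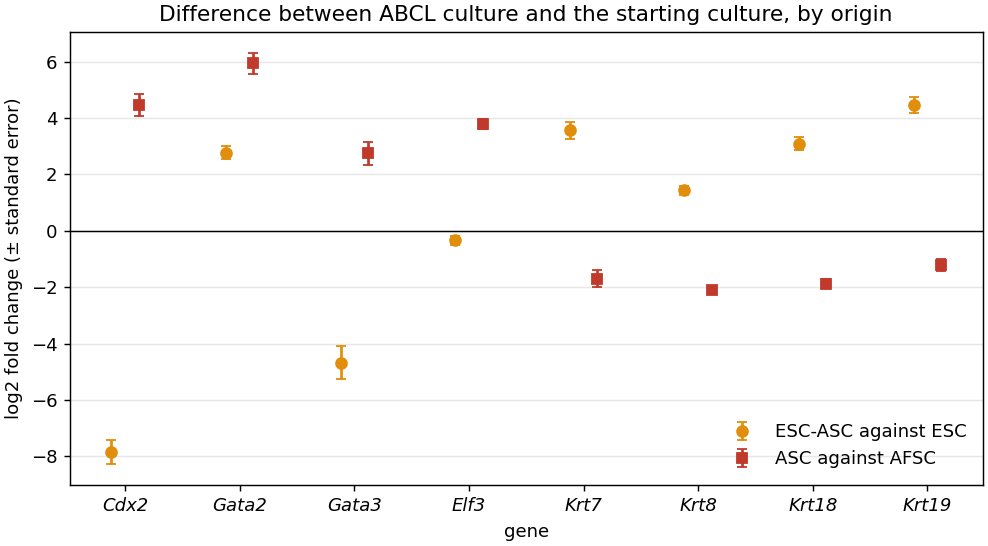
Log2 fold change (± standard error) of the 8 tested genes between cells in ABCL medium and their starting culture, for ESC-ASCs against ESCs (circles) and ASCs against AFSCs (squares), 3 samples a group. The keratins lie above 0 from ESCs and below 0 from AFSCs, and *Cdx2* lies at −7.85 from ESCs and at 4.46 from AFSCs.

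ESC-ASCs against ASCs compares the 2 end points in ABCL medium. Of the 8 genes 7 were called, 3 higher and 4 lower in ESC-ASCs, where 50.7% of all genes were called (23% higher and 27.7% lower), and 3 passed the study's thresholds (5.84%). *Krt7* (7.36-fold), *Gata2* (2.54-fold) and *Elf3* (1.78-fold) were higher. *Krt8* (3.85-fold) and *Krt18* (2.17-fold) were lower, along with *Cdx2* and *Gata3* as given above. *Krt19* was the gene that did not pass.

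The 3 primed groups were each set against ESCs and share those ESC samples. In EpiLCs 7 of 8 genes were called, 3 higher and 4 lower, where 55.3% of all genes were called (28.7% higher and 26.6% lower), and 4 passed the study's thresholds (12.2% of genes). In AFSCs 8 were called, 4 higher and 4 lower, where 60.5% of all genes were (29.7% and 30.8%), and 6 passed the study's thresholds (16.4%). In EpiSCs 8 were called, 3 higher and 5 lower, where 61.2% were (29.2% and 32%), and 7 passed the study's thresholds (17.3%). The factors *Cdx2*, *Elf3*, *Gata2* and *Gata3* were lower in all 3, and *Krt7*, *Krt8* and *Krt18* were higher in all 3. *Elf3* was 21.7-fold, 31.1-fold and 97.0-fold lower in EpiLCs, AFSCs and EpiSCs. *Krt8* was 3.54-fold, 45.0-fold and 6.72-fold higher. *Krt19* parted from the other keratins, being 41.3-fold higher in AFSCs, 4.01-fold lower in EpiSCs and not called in EpiLCs.

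ASCs were then set against the other primed groups. Against EpiLCs 7 of 8 genes were called, 6 higher in ASCs and 1 lower, where 59.8% of all genes were called (31.4% higher and 28.4% lower), and 5 passed the study's thresholds (9.98%). *Krt7* was the lower gene (2.27-fold), and *Krt19* was 14.3-fold higher. Against EpiSCs 8 were called, 7 higher and 1 lower, where 66.5% of all genes were (35.9% and 30.7%), and 6 passed the study's thresholds (16.5%). *Krt7* was again the lower gene (7.44-fold), while *Krt19* was 72.1-fold and *Elf3* 43.3-fold higher. AFSCs against EpiSCs gave 6 calls, where 39.4% of all genes were called (21.6% higher and 17.8% lower), and 3 passed the study's thresholds (5.8%). The 5 higher in AFSCs were *Krt19*, *Krt8* (6.70-fold), *Krt18* (4.89-fold), *Elf3* (3.12-fold) and *Gata3*, which rested on 20 counts against 1. *Krt7* was 2.29-fold lower, and *Cdx2* and *Gata2* did not pass (adjusted p = 0.326 and 0.125).

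Other genes of the trophoblast program were read beside the 9, from a list of 14 of which 11 were tested. In ASCs against ESCs 4 were higher and 1 lower, the median log2 fold change being 0.46, where 50.3% of all genes were called. *Hand1*, a factor of trophoblast giant cells and of extraembryonic mesoderm, averaged 38.9 in ASCs and 1.57 or less in every other group, and *Eomes*, used in trophoblast stem cells and in the primitive streak, was 21.5 in ASCs, 2.37 in ESCs and 472 in EpiSCs. Against AFSCs (64% of all genes called) 8 were higher in ASCs and 3 lower, *Tead4* (3.69 ± 0.23 SE), *Rhox6* and *Pcsk6* among the higher. *Eomes* averaged 159 in AFSCs, above its mean in ASCs. In ESC-ASCs against ESCs (60.1% called) 2 were higher and 5 lower, *Ascl2* (3.31 ± 0.29 SE), a spongiotrophoblast factor, being higher. Lower means were those of *Rhox6*, 48.95 in ESCs and 11.7 in ESC-ASCs, and of *Pcsk6*, 156 and 57.3. Genes of differentiated trophoblast varied in level. *Prl3d1*, a placental lactogen gene of giant cells, had 1 count in 18 samples, and *Syna*, a syncytin gene, averaged 1.54 at most. *Synb*, the other syncytin gene, averaged 9.64 in AFSCs, 4.58 in EpiLCs and 2.35 or less elsewhere, and *Gcm1*, a factor of syncytiotrophoblast, 7.34 in EpiLCs, 6.25 in AFSCs and 1.94 or less elsewhere. *Ascl2* averaged 141 in ESC-ASCs, 42.1 in ASCs and less in each of the other groups.

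BMP response genes were read because ABCL medium contains BMP4. All 7 (*Id1*, *Id2*, *Id3*, *Msx1*, *Msx2*, *Smad6* and *Smad7*) had higher levels in ASCs than in ESCs, EpiLCs, AFSCs or EpiSCs taken singly, with a median log2 fold change of 3.09 against ESCs. Of all genes tested, 26.4% were higher in ASCs against ESCs, 31.4% against EpiLCs, 32.8% against AFSCs and 35.9% against EpiSCs. In ESC-ASCs, which also grew with BMP4, all 7 were lower than in ASCs, with a median of −2.59, where 27.7% of all genes were lower. *Id3* averaged 502 in ASCs, 27.0 in ESC-ASCs and 31.5 in ESCs, and *Msx2* 36.1, 2.98 and 1.86. *Cdx2* and *Gata3* were higher in ASCs than in ESC-ASCs alongside these 7 genes, and *Gata2* was lower. *Cdx2* was highest in ESCs, however, with a mean of 94.9 against 51.1 in ASCs, and a link to the BMP response was not tested. Of 4 tested genes among the other GATA and epithelial ETS factors, 3 were higher in ASCs than in AFSCs and 1 was lower, where 32.8% of all genes were higher and 31.2% lower, and *Gata4* averaged 13.1 in ESC-ASCs and 0.41 in AFSCs.

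**Figure D5:**
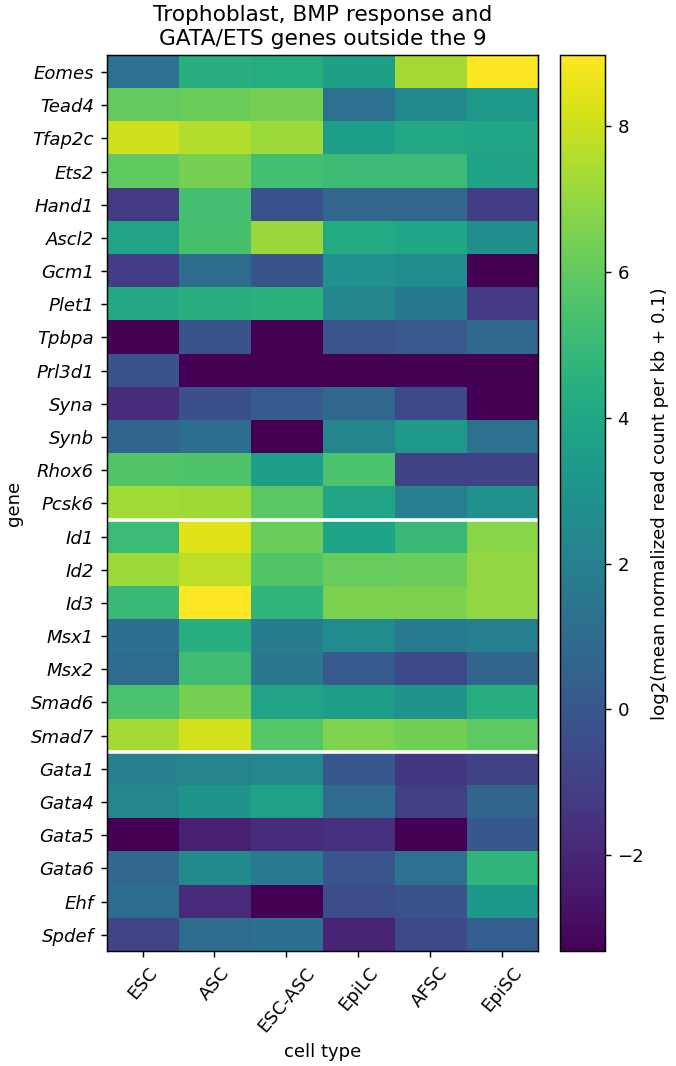
Mean levels, as log2(mean normalized read count per kb + 0.1), of 14 further trophoblast genes (top), 7 BMP response genes (middle) and 6 other GATA and epithelial ETS genes (bottom) in the 6 cell types, 3 samples each. The BMP response genes are brightest in ASCs (*Id3*, 502), and *Prl3d1* and *Tpbpa* are dark in every column.

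Genes that link keratin filaments to cell contacts were followed through 9 desmosome and plakin genes, all tested. In AFSCs against ESCs 6 were higher and 2 lower (median log2 fold change 1.89; 60.5% of all genes called), with *Ppl* at 3.67 ± 0.23 SE and *Pkp2* at 3.39 ± 0.13 SE. In ASCs against ESCs 7 were higher and 1 lower (median 1.31; 50.3% called), and in ESC-ASCs against ESCs 6 were higher and 2 lower (median 1.5; 60.1% called). *Jup*, which encodes plakoglobin, was the lower gene in ASCs, at 161 against 280 in ESCs. In ASCs against AFSCs, where all 4 simple keratins were lower, 2 linkers were higher and 3 lower (median −0.23), a share of 5 in 9 called where 64% of all genes were. *Vim*, the mesenchymal intermediate filament gene, averaged 1339 in AFSCs and 250 in ASCs, so that it and the keratins were lower in ASCs together.

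Of the 50 other keratin genes 44 had a count in some sample and 5 were tested. The highest was *Krt42*, a type I keratin, with a mean of 224 in ESCs and 12.8 in ASCs. The summed level of the 50 was 245 ± 41.2 in ESCs, above the 53.2 of the simple keratins there, and 39.3 to 92.8 on average elsewhere. *Krt10*, a keratin of differentiating epidermis, was highest in AFSCs (27.3) and *Krt12*, the corneal keratin, in EpiLCs (19.8). *Krt8* or *Krt18* was thus the highest keratin gene in ASCs, EpiLCs, AFSCs and EpiSCs, *Krt19* in ESC-ASCs and *Krt42* in ESCs.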

How the data were processed

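PolyA RNA of 18 cultures in 6 groups was sequenced as directional paired-end libraries. Each deposited table gives, for 1 sample, the raw count of every gene, and to obtain it the authors mapped reads to GRCm38 with TopHat2 and counted fragments on Ensembl release 86 exons with featureCounts 1.5.0-p1, according to the file headers and the study's methods. Both ends had to map, with an overlap of at least 10 bases, and fragments that overlapped several genes or mapped to several places were counted for each of them without regard to strand. Near copies and overlapping genes therefore share counts. Groups follow the sample labels, which differ from the names of some tables. The 9 genes and the other gene lists were chosen with earlier results of these data known.

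The tests used edgeR 4.0.16 with limma 3.58.1 under R 4.3.3, on genes that reached 10 counts in 3 or more samples, with TMM normalization and a robust quasi-likelihood fit over all 18 samples. P-values were Benjamini-Hochberg adjusted over 16901 genes within each comparison, and a standard error is the log2 fold change divided by the square root of F. Levels are counts over DESeq2 1.42.0 size factors and exonic length in kb, with a pseudocount of 0.1 on log2 axes. Where a group held few counts, ratios of pooled levels carry exact 95% counting intervals, which cover counting error only, and a count of 0 allows up to 3 counts. The samples are called biological replicates in the study, and nothing says that they came from separate derivations, so that p-values measure the spread between these cultures. Total counts of 4961934 to 18071600 per sample set the precision of genes with a few counts.

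All 9 genes are named. From other lists, genes that were called with a log2 fold change beyond 2 are named, up to 4 per list and comparison. Genes of these lists with a defining role for a cell type are named too. For each tested gene the 3 genes of most similar centered log2 level were found. The closest is named, and for *Gata3* the second as well. A few other list members were named after their values were seen. Alternatives were DESeq2 size factors, the DESeq2 Wald test, no count filter, the study's thresholds, the compared samples alone, a replicate block, thinning of ESC-ASC libraries and leaving out each library. The scripts were tested on simulated data, and figures were drawn with Python 3.11.15 and matplotlib 3.10.9. Methylation and repeat data were not used here.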

Additional observations from a re-analysis of the deposited data

Results flagged for a closer look

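The change into ABCL medium from ESCs (ESC-ASCs against ESCs) minus the change from AFSCs (ASCs against AFSCs) passed the test of the difference itself for all 8 tested genes, 4 in each direction, where 58.5% of all genes did. On the log2 scale, with edgeR's adjusted p, the difference was −12.3 ± 0.583 SE for *Cdx2* (2.4e-12), the widest gap, from −7.85 and 4.46. It was −7.43 ± 0.719 SE for *Gata3* (4.55e-08), −4.13 ± 0.241 SE for *Elf3* (3.81e-11) and −3.17 ± 0.497 SE for *Gata2* (2.15e-05). The keratins differed the other way, from starting levels that were lower in ESCs than in AFSCs. The difference was 5.66 ± 0.36 SE for *Krt19* (1.23e-10), 5.27 ± 0.429 SE for *Krt7* (4.06e-09), 4.98 ± 0.267 SE for *Krt18* (1.28e-11) and 3.55 ± 0.216 SE for *Krt8* (6.58e-11). The ESC-ASC samples are also the deepest libraries, and the sizes for *Cdx2* and *Gata3* rest on 5 and 4 counts in that group. Without ESC-ASC replicate 3 the difference was −13.7 for *Cdx2* and −8.5 for *Gata3*, and over all single libraries left out it ranged from −13.7 to −11.8 and from −8.5 to −6.92.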

How the results depend on the processing

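Under the study's thresholds the number of the 8 genes called fell in all 10 comparisons, since these thresholds also ask for a fold change and a level. It fell to 3 in ASC against ESC, 5 in ASC against AFSC, 5 in ASC against EpiLC and 6 in ASC against EpiSC. Against ESC it fell to 4 in EpiLC, 6 in AFSC, 7 in EpiSC and 5 in ESC-ASC. It was 3 in AFSC against EpiSC and 3 in ESC-ASC against ASC. The difference between the changes into ABCL has no value under them. Leaving out each library in turn gave 7 to 8 calls in ASC against EpiSC (*Krt18* was lost without ASC replicate 2 or 3 or EpiSC replicate 1 or 2), 7 to 8 in AFSC against ESC (*Gata3* was lost without AFSC replicate 2), and 7 to 8 of the 8 genes with an unchanged order of group means (*Krt18*, *Krt7* or *Gata3* changed). The other 9 comparisons kept their number of calls. The log2 fold change of *Krt18* in ASC against EpiLC, not called, turned to 0.0375 without ASC replicate 1 and ranged from −0.182 (without ASC replicate 3) upward. Fitting the replicate number as a block changed none of 88 results for the 8 genes, with 7, 8, 7, 8, 7, 8, 8, 6, 7, 7 and 8 calls. Deviations of same-numbered samples correlated at 0.0539 on average (−0.114 to 0.332, 45 pairs), and 16 pairs were over 0.1. For samples of different number the average was −0.0259. Among all genes tested, the block raised the number of calls in every comparison. It rose from 8503 to 8962 in ASC against ESC and from 6659 to 7097 in AFSC against EpiSC. Whether the replicate numbers pair samples was not tested. DESeq2 size factors, the DESeq2 Wald test and no count filter changed no call of the 8 genes, while thinning and the fit of the compared samples alone added *Elf3* in ESC-ASC against ESC. Of 7384 results for called genes of the other lists under alternatives, 214 lost their call and 0 reversed. Depth limits *Elf5* everywhere, *Gata3* outside ASCs, ESCs and AFSCs, *Gata2* in AFSCs and EpiSCs, and *Cdx2* in ESC-ASCs. Without ESC-ASC replicate 3, EpiLC replicate 2 or 3 or EpiSC replicate 2, fold changes of *Cdx2*, *Gata2* or *Gata3* against that group grew by over 1.5 times and stayed called. Samples of a group differed by more than counting noise, with a chi-square per degree of freedom of 1.61 to 92.1.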

Other observations

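For each tested gene the genes of most similar pattern over the 18 samples were found by the mean absolute difference in centered log2 level, which is a description with no test. The closest to *Cdx2* was *Tlx2*, a homeobox gene, at 0.984 (median over all genes tested 2.59), with levels of 107 in ESCs, 12.2 in ASCs and 0 in ESC-ASCs. The closest to *Gata2* was *A2m* (0.67), at 130 in ESC-ASCs, 116 in ASCs and 0.188 in EpiSCs. *Ypel2* was closest to *Elf3* (0.48), *Gm17167* to *Gata3* (0.782), *F3* to *Krt7* (0.383), *Tmeff2* to *Krt8* (0.449), *Pcsk1n* to *Krt18* (0.327) and *Plaur* to *Krt19* (0.90). Second closest to *Gata3* was *Col1a1*, a fibrillar collagen gene, at 0.83.

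Caudal and posterior genes, with which *Cdx2* is active in the later embryo, were followed as a list of 6 with 5 tested. In ESC-ASCs against ASCs all 5 were lower (median log2 fold change −2.73), where 27.7% of all genes were lower. *Cdx1*, a paralog of *Cdx2*, averaged 370 in ASCs, 137 in ESCs, 44.9 in ESC-ASCs and 15.9 in EpiSCs and had no count in AFSCs. Among 7 epithelial junction genes, all tested, 3 were higher and 1 lower in ESC-ASCs than in ESCs, where 60.1% of all genes were called, *Cldn7* by 4.96 ± 0.25 SE on the log2 scale. *Tpbpa*, a spongiotrophoblast gene, had counts in replicate 1 of 4 groups and 0 counts in the other samples, a pattern noticed after its values were seen.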
